A study of Stylosanthes guianensis with 6 samples.

Results

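The unigenes described here are the aquaporins, ATPases and boron transporters that the study listed among the transporters of stylo roots responding to phosphate (Pi) starvation. They are the 38 unigenes entered under those 3 headings of its list of transporter unigenes, 17 as aquaporins, 16 as ATPases and 5 as boron transporters, out of 173014 unigenes in the deposited tables. A unigene is a transcript cluster of an assembly made without a genome, so no member has a chromosome position, and its name is that of a matching protein or mRNA of another species. The list was drawn up from the same comparison of the same libraries. Every difference between treatments given below is therefore a description of chosen unigenes, with no test. The heading ATPase is broader than its name, since 5 of its 16 unigenes are described as adenine nucleotide carriers and 1 as the GTPase HflX.

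Stylo (Stylosanthes guianensis) is a tropical forage legume that tolerates acid, phosphorus-poor soils. Roots of the cultivar RY2 were sampled after 21 d in hydroponic solution with no added KH2PO4 (LP) or with 250 μM KH2PO4 (HP, titled CK), 3 libraries each. According to the study's methods, all seedlings were first raised with phosphate in Hoagland-type solution, and plants sharing a hydroponic box counted together as a biological replicate. The labels carry a phosphorus field with these doses swapped, 250 μM for LP and 0 μM for CK. The titles and the study's definition of LP were followed. All 4 unigenes described as inorganic phosphate transporter 1-4-like and an SPX domain-containing protein 1, kinds of gene that Pi starvation is known to raise in plants, had higher values in the 3 LP libraries than in any HP library. The SPX unigene Cluster-8255.18191 stood at 188.76 to 229.91 FPKM under LP and at 3.71 to 4.25 under HP. FPKM is a fragment count scaled for the length of the unigene and the size of the library. These 5 unigenes were themselves listed by the study on these libraries. The labels also disagree on the tissue, since the extraction text speaks of leaves and the tissue field of roots, and root identity was not checked against markers here.

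Aquaporins are membrane channels for water and small neutral solutes. Plasma membrane intrinsic proteins (PIP) control water flow across the root cell surface, PIP2 proteins being strong water channels and PIP1 proteins often reaching the plasma membrane only together with PIP2 partners. Tonoplast intrinsic proteins (TIP) serve the vacuole, and small basic intrinsic proteins (SIP) are known from the endoplasmic reticulum of Arabidopsis. Among the ATPases, the V-type enzyme pumps protons into the vacuole, the mitochondrial enzyme makes ATP, and heavy metal P-type pumps move copper, zinc or cadmium across membranes. BOR proteins export borate, and Arabidopsis BOR1 loads boron into the xylem.

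The deposited counts summed to between 20643446 and 21784888 reads in the LP libraries (median 21046780) and to between 15586353 and 17821019 in the HP libraries (median 16296477). The treatments separated along the first principal component, with 49.5% of the variance, and HP replicate 2 stood apart from the other HP libraries along the second, with 14.8%. Reads that fit several unigenes were divided among them by the authors' estimator, which left 34.0% to 36.4% of each library's values as fractions. In roots sampled whole, less RNA of a gene per cell and fewer cells that express it cannot be told apart.

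Reads of the listed aquaporins were a smaller part of the root libraries under LP. The 17 aquaporins held 0.361%, 0.377% and 0.463% of the reads in the LP libraries and 0.952%, 0.938% and 1.0% in the HP libraries. The 16 unigenes of the ATPase heading held 0.0246% to 0.0311% under LP and 0.0839% to 0.0885% under HP. The 5 boron transporters held 0.0176% to 0.0215% under LP and 0.0799% to 0.0982% under HP. The treatments did not overlap in any of these 3 listed sets. Unigenes of these families outside the list were not counted, and the list was chosen by this comparison. The sums therefore do not describe the whole families.

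All 38 members passed the filter on low counts, which asks for about 10 reads in at least 3 libraries. Of these, 30 met it in all 6 libraries, 6 in all LP libraries but not all HP libraries, and 2 in all HP libraries but in no LP library. With the study's thresholds in edgeR's quasi-likelihood test (adjusted p under 0.05 and a change of at least 1 on the log2 scale), 35 of the 38 were called, 8 higher and 27 lower under LP. Of all 62040 unigenes tested, 13.2% were called, 6.09% higher and 7.1% lower. LP and HP libraries did not overlap in 38 of 38 members, against 42.4% of all tested unigenes. The list was made with such thresholds, so nothing is read from these counts. By family, 5 aquaporins were higher and 12 lower, 3 unigenes of the ATPase heading were higher and 12 lower, and 3 boron transporters were lower with none called higher. The median log2 change of the members was -1.66, beside 0.03 over all tested unigenes. Over the 233 tested unigenes from the other headings of the transporter list it was -1.58.

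**Figure D1:**
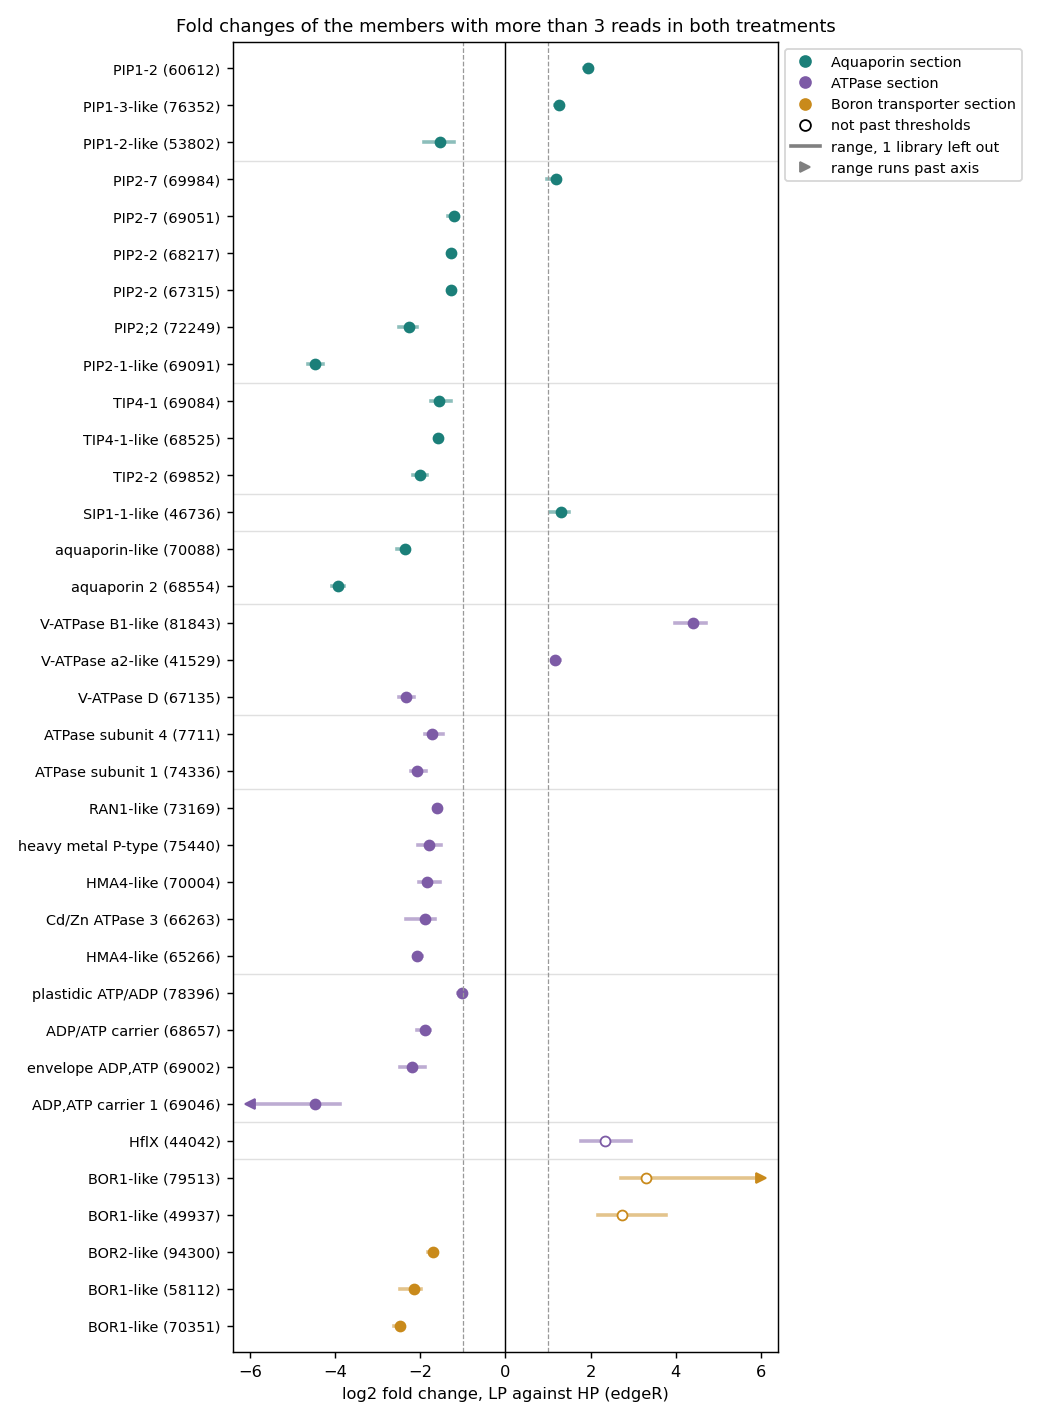
Log2 change under LP relative to HP of the 35 members with more than 3 reads in both treatments, grouped by role, with filled points for called members and bars for the range of estimates when single libraries were left out (arrows where a bar runs past the axis). Points lie on both sides of 0 within the PIP1, PIP2, V-type and boron groups, and the 3 open points all lie above 0.

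The 3 listed PIP1 unigenes together had more reads under LP, with 164 ± 10.5 normalized CPM under LP and 78.1 ± 6.46 under HP (SD, n = 3). PIP1-3-like (Cluster-8255.76352) carried most of these reads, with 2665, 2661 and 2428 normalized counts under LP and 1080, 1195 and 991 under HP. Normalized counts are reads scaled to the mean library size, and CPM is the same reads expressed per fixed library total. Its log2 change was 1.25 (SE 0.10), and the LP values lay close together at more than double the HP values. Besides it, 2 unigenes are described as PIP1-2 and moved in opposite directions.

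PIP1-2 (Cluster-8255.60612) had 371, 411 and 358 normalized counts under LP and 97.0, 114 and 88.6 under HP, a log2 change of 1.93 (SE 0.15). PIP1-2-like (Cluster-8255.53802) had 133, 95.6 and 45.0 under LP and 251, 276 and 269 under HP, a log2 change of -1.54 (SE 0.36). The former was the rarer by reads in every HP library and the more abundant in every LP library. It took 24.8% to 29.2% of the pair's reads under HP and 73.5% to 88.8% under LP. Per length, its share of the pair's FPKM was 48.1% to 53.3% under HP and 88.7% to 95.7% under LP, the effective lengths being 285 and 797 bases. The call of PIP1-2-like was lost when LP replicate 2 or any single HP library was left out, with estimates between -1.91 and -1.21 over the 6 fits.

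The 8 PIP2 unigenes, the main water channels of the root plasma membrane, contributed the most reads of any group. Their sum was 4874 ± 226 normalized CPM under HP and 2903 ± 444 under LP (SD, n = 3), a log2 ratio of -0.75. PIP2-2 (Cluster-8255.67315) alone gave 28.0% of all aquaporin reads under HP and 27.5% under LP. It had 20068, 19821 and 22844 normalized counts under LP and 50468, 48403 and 52775 under HP, with a log2 change of -1.27 (SE 0.10). In each HP library it ranked between place 6 and place 9 of all unigenes by reads. The other unigene with the name PIP2-2 (Cluster-8255.68217) was far rarer, at 153, 134 and 148 normalized counts under LP and 327, 356 and 367 under HP. Its log2 change was also -1.27 (SE 0.13), and it held between 0.642% and 0.759% of the pair's reads in every library, so the ratio of the pair hardly moved with treatment.

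The 2 unigenes named PIP2-7 exchanged places. Cluster-8255.69984 had 18032, 18292 and 26439 normalized counts under LP and 8759, 9351 and 9545 under HP, a log2 change of 1.18 (SE 0.16). Cluster-8255.69051 had 11414, 10339 and 13894 under LP and 27987, 25513 and 29251 under HP, a log2 change of -1.21 (SE 0.13). The one that rose supplied 23.8%, 26.8% and 24.6% of the pair's reads in the HP libraries and 61.2%, 63.9% and 65.6% in the LP libraries. Its change slipped below the threshold, to 0.98, when LP replicate 3 was left out. Both unigenes had values that were not whole in all 6 libraries, so part of their reads was divided with other unigenes, and its share in the exchange was not tested.

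The remaining PIP2 members were low in at least 1 treatment. PIP2;2 (Cluster-8255.72249) had 35.7, 28.0 and 49.5 normalized counts under LP and 214, 178 and 156 under HP, with a log2 change of -2.27 (SE 0.27). PIP2-1 (Cluster-8255.78240) had 0.872, 0 and 0.917 normalized counts under LP and 28.1, 14.5 and 21.9 under HP. These are 2 LP reads and 58 HP reads in all, a ratio of normalized reads of 36.6 in favour of HP (95% exact counting interval 9.67 to 309). PIP2-5-like (Cluster-8255.9111) went the other way, with 101 reads in LP roots and 0 in HP roots. Its normalized counts were 15.7, 31.6 and 44.0 under LP, at least 26.7-fold higher than under HP when 3 reads are set for the HP group.

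PIP2-1-like (Cluster-8255.69091) showed how far the unit decides which aquaporin leads. By FPKM it was the most abundant of all 173014 unigenes in each HP library, at 7171.45, 6977.61 and 8118.10, against 298.82, 368.36 and 436.75 under LP. By reads it stood at rank 843 to 1043 in those HP libraries, with 2659, 2880 and 2997 normalized counts, and 98.5, 128 and 160 under LP. The LP values were the lower ones on either scale, with a log2 change of -4.47 (SE 0.19). The deposited counts and FPKM imply an effective length of 19 bases, the length over which a fragment could start, whereas the median over tested unigenes was 1390 bases. Of 61746 tested unigenes with a length that could be computed, 933 (1.51%) lay under 100 bases. At such a length, an FPKM multiplies each read many times over. This single unigene made up 36.6% of the summed FPKM of the aquaporins under HP and 7.37% under LP. The sum was 4994 ± 664 under LP and 20280 ± 1110 under HP (SD, n = 3) and 4626 ± 600 and 12858 ± 507 without it. The log2 ratio of the PIP2 sum was -1.96 in FPKM, -0.79 without that unigene and -0.75 in reads.

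**Figure D2:**
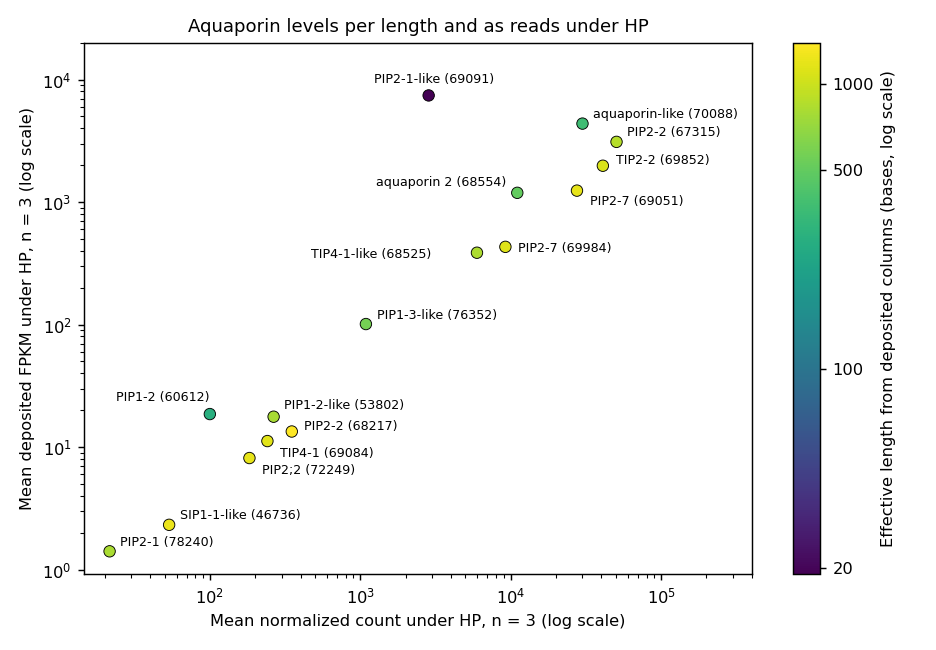
Mean FPKM against mean normalized count of the aquaporins under HP (3 libraries, log axes), coloured by the effective length implied by the deposited columns; PIP2-5-like, with 0 reads under HP, is not drawn. PIP2-1-like lies highest by FPKM at an effective length of 19 bases, while PIP2-2 (Cluster-8255.67315) lies farthest to the right.

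The 3 tonoplast aquaporins were all lower under LP, and their summed reads were 2536 ± 48.0 normalized CPM under HP and 657 ± 137 under LP (SD, n = 3), a log2 ratio of -1.95. TIP2-2 (Cluster-8255.69852) made up most of this sum, with 7694, 10359 and 12450 normalized counts under LP and 40754, 39987 and 42274 under HP, a log2 change of -2.01 (SE 0.18). TIP2 proteins conduct ammonia besides water in Arabidopsis. The HP libraries differed by a coefficient of variation of 2.84% for this unigene and the LP libraries by 23.4%.

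The name TIP4-1 occurs in 2 unigenes that fell alike. TIP4-1-like (Cluster-8255.68525) had 1876, 1905 and 2174 normalized counts under LP and 5899, 6298 and 5697 under HP, a log2 change of -1.59 (SE 0.09). TIP4-1 (Cluster-8255.69084) had 45.3, 101 and 97.2 under LP and 222, 248 and 253 under HP, a log2 change of -1.57 (SE 0.31). The rarer unigene held 2.36% to 5.04% of the pair's reads in LP and 3.63% to 4.25% in HP, ranges that overlap. Its call was lost without HP replicate 1 and without HP replicate 3, with estimates between -1.75 and -1.27 when single libraries were left out.

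SIP1-1-like (Cluster-8255.46736), the only SIP, was among the 5 aquaporins with higher values under LP. It had 127, 176 and 92.7 normalized counts under LP and 42.7, 55.7 and 62.1 under HP, a log2 change of 1.30 (SE 0.30). It was also among the least abundant, at 5.71 FPKM under LP and 2.32 under HP on average. Its call held in 1 of the 6 fits that left out a library, the one without LP replicate 3, with estimates between 1.05 and 1.5. The call was also lost with limma on log2(FPKM + 1), with the replicate number as a block and in a test against a log2 change of 1. It held in 8 of the 16 alternative analyses.

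After PIP2-1-like, the steepest falls among the abundant aquaporins were in 2 unigenes whose descriptions give no subfamily. Aquaporin 2 (Cluster-8255.68554) had 602, 713 and 864 normalized counts under LP and 10556, 11380 and 11243 under HP, a log2 change of -3.93 (SE 0.15). Aquaporin-like (Cluster-8255.70088) had 5147, 4998 and 7314 under LP and 27552, 30790 and 31706 under HP, a log2 change of -2.37 (SE 0.17). Together they held 2206 ± 140 normalized CPM under HP and 352 ± 75.9 under LP (SD, n = 3). Aquaporin-like ranked 4 or 5 of all unigenes by FPKM in the HP libraries and 21 or 22 by reads, at an effective length of 365 bases.

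**Figure D3:**
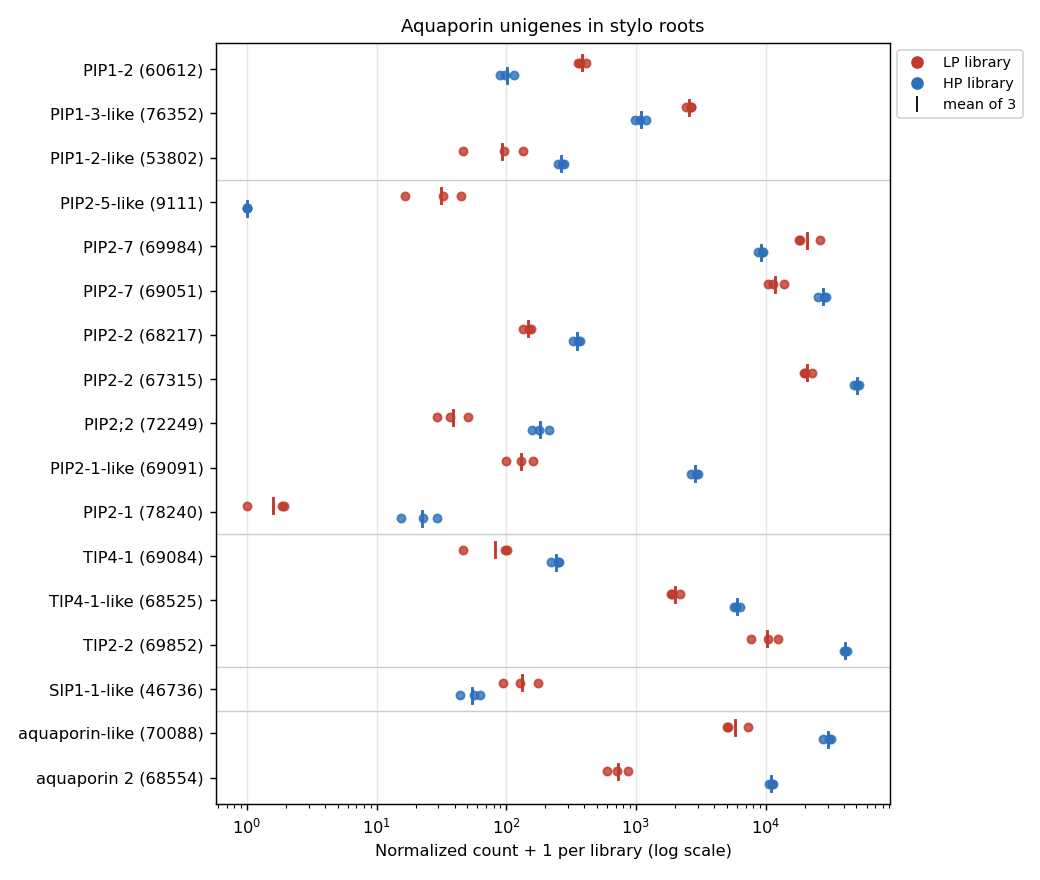
Normalized counts of the 17 aquaporins in each of the 3 LP and 3 HP libraries (log axis, 1 added to each value), a point for each library and a bar for the mean. LP and HP points do not overlap for any of the 17, and 5 unigenes have their LP points above, among them the PIP1-2 and PIP2-7 copies whose namesakes have them below.

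In order of mean FPKM under HP, PIP2-1-like (7420) was followed by aquaporin-like (4370), PIP2-2 (3100), TIP2-2 (1980), PIP2-7 (1240, Cluster-8255.69051) and aquaporin 2 (1190). The library ranges of neighbours in this order were separate down to PIP2-7, and those of PIP2-7 and aquaporin 2 overlapped. Under LP the order was PIP2-2 (1270), PIP2-7 (966, Cluster-8255.69984), aquaporin-like (841), PIP2-7 (528, Cluster-8255.69051), TIP2-2 (485) and PIP2-1-like (368). In LP roots the ranges of the PIP2-7 unigene Cluster-8255.69984 and aquaporin-like overlapped, as did those of the other PIP2-7 and TIP2-2, and those of TIP2-2 and PIP2-1-like. Of the 17 aquaporins, 8 were among the top 1% of tested unigenes by FPKM, a level that no member of the other families reached.

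Of the 3 V-type ATPase subunits, 2 were higher under LP and 1 lower. The subunit B1-like unigene (Cluster-8255.81843), named after a part of the peripheral sector that binds nucleotides, had 134, 385 and 248 normalized counts under LP and 15.6, 12.1 and 8.05 under HP, a log2 change of 4.40 (SE 0.48). It was scarce in HP roots, at 0.20 to 0.37 FPKM, and varied by 49.1% among LP libraries. Subunit a2-like (Cluster-8255.41529), a homologue of the membrane subunit of the tonoplast pump in Arabidopsis, had 846, 708 and 896 under LP and 374, 368 and 345 under HP, a log2 change of 1.17 (SE 0.12). Subunit D (Cluster-8255.67135), a part of the central stalk, had 70.6, 97.4 and 117 under LP and 423, 479 and 530 under HP, a log2 change of -2.33 (SE 0.21). The 3 unigenes belong to different subunits of the same enzyme, and their summed reads were 62.7 ± 5.74 normalized CPM under LP and 45.8 ± 1.92 under HP (SD, n = 3).

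Both mitochondrial ATPase subunits were lower under LP. ATPase subunit 1 (Cluster-8255.74336), the catalytic-sector subunit that plant mitochondrial genomes encode, had 90.7, 65.9 and 78.0 normalized counts under LP and 297, 270 and 428 under HP, a log2 change of -2.08 (SE 0.23). Subunit 4 (Cluster-8255.7711), which belongs to the stator, had 18.3, 11.7 and 20.2 under LP and 38.6, 54.5 and 73.6 under HP, a log2 change of -1.72 (SE 0.40). The call of subunit 4 was lost without LP replicate 1 or 2 and without HP replicate 2 or 3, with estimates between -1.90 and -1.48. Both unigenes had whole counts in all 6 libraries. HP replicate 3 was the highest library for both, and the treatments did not overlap.

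The 5 heavy metal pumps were all lower under LP with log2 changes between -2.08 and -1.61. Their summed reads were 156 ± 18.7 normalized CPM under LP and 593 ± 33.6 under HP (SD, n = 3). HMA4-like (Cluster-8255.65266), whose Arabidopsis namesake exports zinc and cadmium towards the xylem, carried most of them. It had 1634, 1398 and 1626 normalized counts under LP and 7353, 6171 and 6229 under HP, a log2 change of -2.08 (SE 0.11). The rarer HMA4-like unigene (Cluster-8255.70004) had 60.2, 28.0 and 63.3 under LP and 221, 169 and 155 under HP, a log2 change of -1.85 (SE 0.34). It held 1.96% to 3.75% of the pair's reads in LP and 2.43% to 2.92% in HP, so the pair fell in step.

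Copper pumps were represented by RAN1-like (Cluster-8255.73169), whose Arabidopsis namesake delivers copper to ethylene receptors. It had 520, 534 and 599 normalized counts under LP and 1767, 1653 and 1645 under HP, a log2 change of -1.61 (SE 0.09). The heavy metal P-type unigene (Cluster-8255.75440) had 394, 687 and 868 under LP and 2161, 2255 and 2299 under HP, and its log2 change was -1.79 (SE 0.27). Its LP libraries spread over more than a doubling, while the HP libraries varied by 3.14%. Cadmium/zinc-transporting ATPase 3 (Cluster-8255.66263) had 75.8, 59.5 and 142 under LP and 250, 344 and 435 under HP, a log2 change of -1.89 (SE 0.37). Its call was lost without LP replicate 1 and without HP replicate 3, with estimates between -2.34 and -1.65 when single libraries were left out.

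The adenine nucleotide carriers, which are not ATPases but exchange ADP for ATP across organelle membranes, comprised 4 lower unigenes and 1 higher. Their summed reads were 57.9 ± 14.5 normalized CPM under LP and 207 ± 15.6 under HP (SD, n = 3). Most came from the chloroplast envelope ADP,ATP carrier (Cluster-8255.69002), with 377, 690 and 905 normalized counts under LP and 2638, 3299 and 3053 under HP, a log2 change of -2.19 (SE 0.30). The plastidic ATP/ADP transporter (Cluster-8255.78396), which brings ATP into plastids, had the smallest change of any called member, -1.03 (SE 0.12). Its values were 292, 327 and 329 under LP and 668, 571 and 691 under HP. It was no longer called without LP replicate 1, HP replicate 1 or HP replicate 3, with estimates between -1.11 and -0.96.

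The name ADP/ATP carrier is shared by 2 unigenes with opposite patterns. Cluster-8255.69001 had 61.9, 91.1 and 15.6 normalized counts under LP and no HP library held a read of it. Its 189 LP reads were at least 50.0-fold higher than HP when 3 reads are set for the HP group. Cluster-8255.68657 had 43.6, 57.7 and 38.5 under LP and 177, 155 and 192 under HP, a log2 change of -1.90 (SE 0.22). The former took 28.8% to 61.2% of the pair's reads under LP, the lowest share being that of LP replicate 3, and its call was lost without LP replicate 1 (estimates 8.25 to 9.23 with single libraries left out). With no HP read in any library, the size of these estimates was not measured. ADP,ATP carrier 1 (Cluster-8255.69046) was nearly absent from LP libraries, with 0, 0 and 5.5 normalized counts against 41.7, 27.8 and 58.7 under HP. Its log2 change of -4.47 (SE 1.19) rested on the single LP library with reads, LP replicate 3. Leaving that library out gave -8.40, the only 1 of the 6 such fits in which it was called. With no LP read left, the size of that estimate was not measured.

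HflX (Cluster-8255.44042), a GTPase known from bacteria, where it acts on ribosomes, was the only unigene of the ATPase heading not called. It had 58.4, 29.8 and 46.8 normalized counts under LP and 14.6, 0 and 11.5 under HP. The libraries did not overlap, and the log2 estimate was 2.34 (SE 0.95).

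**Figure D4:**
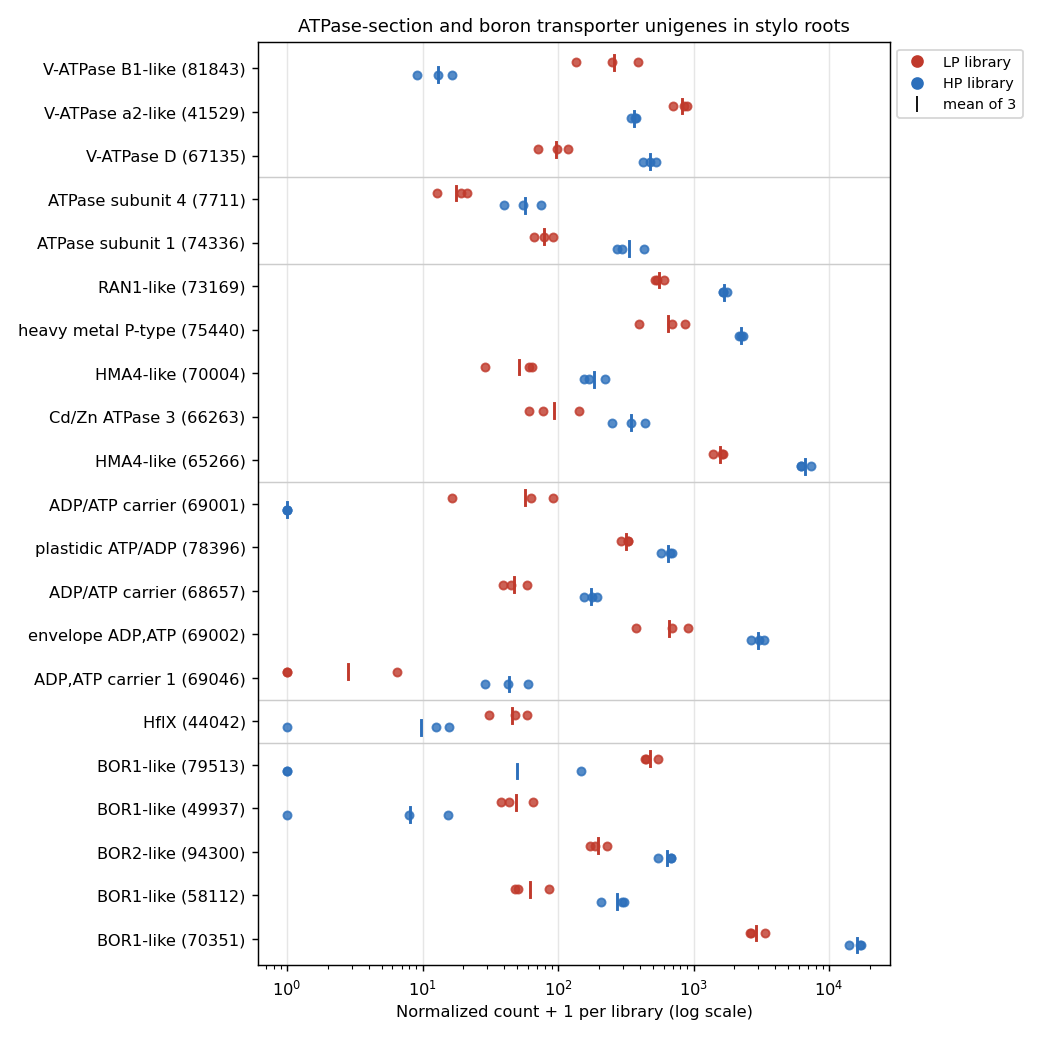
Normalized counts of the 16 unigenes of the ATPase heading and the 5 boron transporters in each of the 3 LP and 3 HP libraries (log axis, 1 added to each value), with a bar for the mean. The 5 heavy metal pumps have all LP points below the HP points, and the BOR1-like unigene Cluster-8255.79513 has reads in HP replicate 2 but in no other HP library.

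Among the 5 boron transporters, 3 fell, the most abundant included. BOR1-like (Cluster-8255.70351) supplied 94.4% of the family's reads under HP and 78.7% under LP. It had 2632, 2625 and 3368 normalized counts under LP and 17260, 14029 and 17011 under HP, a log2 change of -2.49 (SE 0.15). The BOR1-like unigene Cluster-8255.58112 had 47.1, 49.6 and 85.3 under LP and 305, 206 and 297 under HP, a log2 change of -2.15 (SE 0.29). BOR2-like (Cluster-8255.94300), named after an Arabidopsis borate exporter of the root, had 185, 171 and 228 under LP and 680, 676 and 542 under HP, a log2 change of -1.70 (SE 0.16). The summed reads of the family were 196 ± 23.6 normalized CPM under LP and 916 ± 93.0 under HP (SD, n = 3), a log2 ratio of -2.22.

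The other BOR1-like unigenes were higher under LP without passing the thresholds. Cluster-8255.79513 had 446, 545 and 434 normalized counts under LP but 0, 146 and 0 under HP, an estimate of 3.31 (SE 1.34). HP replicate 2, the library that stood apart across the transcriptome, held all of its HP reads. Without it the unigene was called. The estimate was then 11.94, but with no HP read left its size was not measured. Cluster-8255.49937 had 36.6, 64.1 and 42.2 under LP and 0, 14.5 and 6.90 under HP, an estimate of 2.74 (SE 0.98), or 3.77 without HP replicate 2. The 4 BOR1-like unigenes thus comprised 2 that were called lower and 2 with higher values under LP that were not called, the first of these at 9.59 FPKM under LP against 40.6 for the most abundant.

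**Figure D5:**
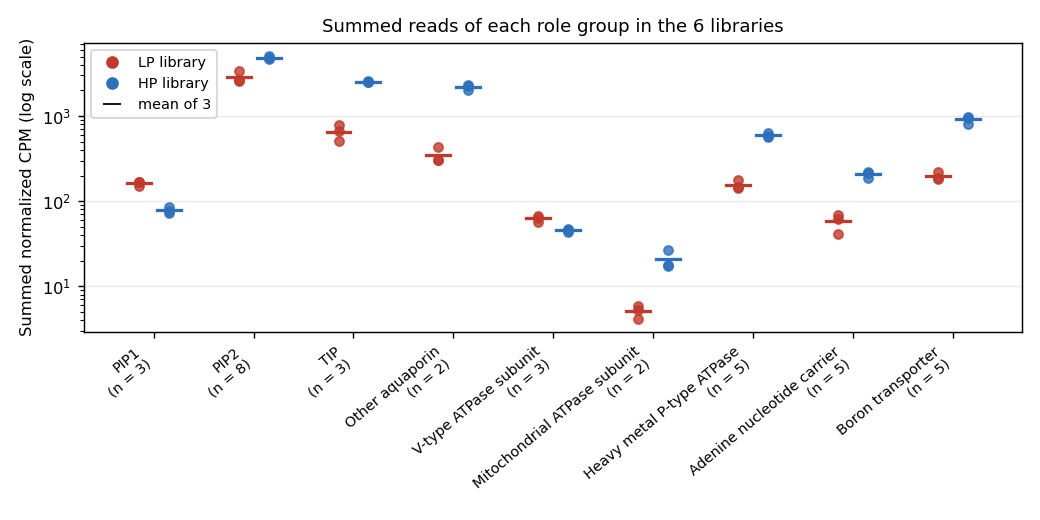
Summed normalized CPM of each role group in the 3 LP and 3 HP libraries, with a bar at the mean (log axis). The PIP1 and V-type groups have their LP values above HP and the other 7 groups drawn have them below. The groups of a single unigene, SIP and the GTPase, are not drawn.

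Listed unigenes that share a name moved together or in opposite directions. The listing asked for a change, so a copy that stayed unchanged could not appear. In PIP2-2, TIP4-1 and HMA4-like, the rarer copy followed the abundant one, with shares of the pair that overlapped between treatments. PIP2-1-like and PIP2-1 were also both lower, the latter with 2 LP reads in all. In PIP1-2, PIP2-7 and the ADP/ATP carrier, the copies moved in opposite directions. The BOR1-like unigenes went both ways, those with higher values under LP not being called. The files do not say whether such copies are separate genes, alleles or parts of a transcript.

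Most members varied more among LP libraries than among HP libraries. The median coefficient of variation of the aquaporins was 6.46% within HP and 22.9% within LP, beside 22.4% and 26.2% over all tested unigenes. For tested unigenes under the other headings of the transporter list it was 16.4% within HP and 27.9% within LP, so LP was the more variable there too. Of the 36 members with reads in both treatments, 27 had the larger coefficient in LP and 9 in HP. Both mitochondrial subunits and HflX went the other way. So did better covered members, namely PIP1-2 (Cluster-8255.60612), PIP1-3-like, the abundant HMA4-like unigene (Cluster-8255.65266) and the plastidic ATP/ADP transporter. The boron transporter medians were 15.5% in LP and 20.5% in HP. Within that family, the 3 called unigenes varied more in LP, the most abundant by 14.8% in LP and 11.2% in HP. The uncalled Cluster-8255.79513 (12.8% and 173%) and Cluster-8255.49937 (30.5% and 102%), which lacked reads in part of the HP libraries, varied more in HP. LP replicate 3 was the highest LP library in 24 of the 38 members (63.2%), whereas it was the highest in 39.3% of all tested unigenes and in 49.4% of the 233 tested unigenes from the other headings of the transporter list. PIP2-7 (Cluster-8255.69984) and aquaporin-like, with the values given above, are among them. Abundance differs between these sets, and its part in the spread was not tested.

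Length was not used in the listing, whereas the levels under LP and HP were what it compared. The members' implied effective lengths ran from 19 to 6566 bases, the longest being the 2 HMA4-like unigenes and the cadmium/zinc ATPase, and over all tested unigenes the median ratio of LP to HP length was 0.997. Counts were whole in all 6 libraries for 8 of 38 members (21.1%), close to the 18.2% of all tested unigenes, so reads of most members were shared with other unigenes. The median FPKM under HP was 101 for aquaporins, 4.43 for the ATPase heading and 9.61 for boron transporters, with 4.63 for the other listed transporters and 2.46 for all tested unigenes. Under LP these medians were, in the same order, 77.2, 2.61, 5.08, 2.3 and 2.49, so the ATPase heading lay near all tested unigenes. Of the 241 unigenes under the other headings, 233 were tested and 205 called, 133 of them (64.9%) lower, and the share lower among the called members was 77.1%. Both lists were drawn from this comparison, and no test was made of that difference.

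At the edge of the thresholds stood, on the inner side, the plastidic ATP/ADP transporter (-1.03), V-type subunit a2-like (1.17) and PIP2-7 (1.18, Cluster-8255.69984), and on the outer side HflX (2.34) and the BOR1-like unigenes (2.74 and 3.31), which missed the adjusted p. Leaving out each library in turn, 26 of the 38 were called in all 6 fits. Of the 35 called members, 9 lost their call in at least 1 such fit: PIP1-2-like, PIP2-7 (Cluster-8255.69984), TIP4-1 (Cluster-8255.69084), SIP1-1-like, ATPase subunit 4, the cadmium/zinc ATPase, the ADP/ATP carrier Cluster-8255.69001, the plastidic transporter and ADP,ATP carrier 1. No member changed sign in any of the 16 alternative analyses that tested it. LP and HP libraries did not overlap in any member, so leaving out a library could hardly reverse a sign. Nothing is read from this.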

How the data were processed

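RNA of RY2 roots was sequenced in 3 LP and 3 HP libraries, grouped by their titles. Per the study's methods, the authors assembled the reads into unigenes with Trinity and estimated expression with RSEM. The processing notes of the submitters name Bowtie2 2.2.3. The deposited estimated counts are not normalized. The authors' FPKM values, deposited in a column of their own, are scaled for length and library size. Whether counting used strand is not given in the sources read, so overlapping and antisense unigenes are uncertain.

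Estimated counts were rounded. Unigenes were filtered with filterByExpr (minimum count 10), scaled by TMM and compared between LP and HP by the quasi-likelihood test of edgeR 4.0.16 (R 4.3.3, with limma 3.58.1 for alternatives), with Benjamini-Hochberg adjustment over 62040 unigenes. Calls needed an adjusted p under 0.05 and a log2 change of at least 1. Bounds against groups without reads used 3 reads over the group. For groups of 1 to 3 reads, 95% exact intervals were computed, and both cover counting error only. Effective lengths were computed from the deposited count, FPKM and library total where the FPKM was at least 0.3. The fit was tested on simulated data. A box of seedlings was the replicate, and the smallest exact permutation p for a single unigene is 0.1 with 3 libraries per treatment.

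Identifiers and descriptions of the members came from the study's list. Its fold changes and p-values were not used. All 38 members are named, with values in every library. The members, role groups and thresholds were chosen with earlier results of these data known. Alternatives were DESeq2 1.42.0, RLE, upper-quartile or no scaling factors, no filter, a test against a log2 change of 1, a filter of 1 CPM in 3 libraries, limma on log2(FPKM + 1) and log2(FPKM + 0.1), the replicate number as a block, each library left out in turn, and summed CPM in place of summed FPKM. Leaving PIP2-1-like out of the sums was added after seeing the data. The sequences of the unigenes were not used here.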

Additional observations from a re-analysis of the deposited data

How the results depend on the processing

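Under a test against a log2 change of 1, 3053 unigenes were called in place of 8183, and 4 members were called higher and 16 lower (aquaporins 2 higher and 7 lower, ATPase heading 6 lower). Replicate numbers paired the libraries weakly at most, since deviations of same-numbered LP and HP libraries correlated at -0.0057, 0.04 and 0.0487. Replicate 1 correlated better with another number (0.0257). Replicates 2 and 3 correlated best with their own, the best other values being -0.0151 and 0.0202. With the replicate block, 5167 unigenes were called, and 6 members were higher, of which 3 were aquaporins, and 24 lower. Boron transporters called higher numbered 1 with DESeq2, 1 with limma on log2(FPKM + 1), 2 on log2(FPKM + 0.1), and 0 to 1 when leaving out single libraries, the 1 arising without HP replicate 2. Leaving out single libraries gave 6 to 8 members called higher and 21 to 27 lower. In all 16 alternatives, 17 members were called, and PIP2-1 was called in the 15 that tested it. Log2 ratios of summed levels, LP over HP, were -2.01 for all members, -2.02 for aquaporins, -1.29 for the ATPase heading, -1.96 for PIP2, 0.26 for V-type subunits and -1.54 for carriers in FPKM. In normalized CPM they were -1.33, -1.25, -1.61, -0.75, 0.45 and -1.84. Without PIP2-1-like, an alternative chosen after seeing the data, those of all members, aquaporins and PIP2 were -1.48, -1.47 and -0.79 in FPKM. CPM gives weight by reads and FPKM by reads per length. Members with few reads, such as PIP2-1, ADP,ATP carrier 1 and HflX, are limited by depth. The HP libraries were the shallower ones, where HflX was scarcest, whereas PIP2-1 and ADP,ATP carrier 1 were scarcest in the deeper LP libraries.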
